A study of Homo sapiens with 12 samples.

Results

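Human chromosome 7 held 42895 of the 671854 ATAC-seq peaks listed for 12 libraries on chromosomes 1 to 22 and X, which is 6.38% and the third highest number among 23 chromosomes. All peaks on the chromosome were taken, and merging those that overlapped by at least 1 bp across the libraries gave 14862 regions, 8.35% of the 178040 regions in all. The chromosome was selected on its share of a library's peaks, which was lower in oxamate-resistant than in parental cells, so every value set between these phenotypes below is a description and carries no test.

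The libraries came from MIAPaCa2, an established human pancreatic ductal adenocarcinoma line. Parental cells were profiled untreated (3 libraries) or treated with oxamate (3 libraries), a pyruvate analog that inhibits lactate dehydrogenase A. Resistant cells, again untreated or treated with 3 libraries each, were a polyclonal population that had grown out of MIAPaCa2 under continuous sodium oxamate, so all 6 resistant libraries stand for 1 selected line. The labels do not say that libraries of a group came from separate cultures, and p-values measure the spread between these libraries, which may be technical. CDKN2A and MTAP on chromosome 9, known to be deleted in this line, had a peak within the gene in 0 of 12 libraries.

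ATAC-seq uses the Tn5 transposase, which inserts adapters preferentially where DNA is free of nucleosomes. Strong and recurrent peaks typically mark promoters of expressed genes and active enhancers, and peaks near the detection limit are harder to call again in another library. Chromosome 7 carries the HOXA cluster, the growth factor receptor genes EGFR and MET and the kinase gene BRAF, and its centromere is represented in the GRCh38 assembly by modelled arrays of alpha satellite, a short sequence repeated in tandem.

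Promoters of 4 genes are shown first, 2 with the best ranked recurrent peaks over the promoter among the listed genes and 2 at which calls differed most between groups. The sequences are RefSeq promoters of GRCh38.p14, from 250 bases before to 50 bases after the start site, read 5′ to 3′ on the strand of the gene. Capitals mark 1 of 3 motifs, each searched on both strands, so that the reverse complement also appears. The GC box was searched as GGGCGG. The CCAAT box was searched as the letters of its name. The TATA box was searched as TATAAA. No match of one motif can lie within another, although the ends of neighbouring matches may overlap. CYCS (chr7:25125211-25125510, minus strand), which encodes cytochrome c, and POT1 (chr7:124929776-124930075, minus strand), which encodes a telomere-binding protein, had a peak over the window in 12 of 12 libraries. CLDN4 (chr7:73830746-73831045, plus strand), encoding the tight-junction protein claudin 4, had a peak over the window in 6 libraries. EN2 (chr7:155457879-155458178, plus strand), encoding an engrailed homeobox factor, had one over the window in 3 libraries and within 1 kb of the start site in 8.
CYCS: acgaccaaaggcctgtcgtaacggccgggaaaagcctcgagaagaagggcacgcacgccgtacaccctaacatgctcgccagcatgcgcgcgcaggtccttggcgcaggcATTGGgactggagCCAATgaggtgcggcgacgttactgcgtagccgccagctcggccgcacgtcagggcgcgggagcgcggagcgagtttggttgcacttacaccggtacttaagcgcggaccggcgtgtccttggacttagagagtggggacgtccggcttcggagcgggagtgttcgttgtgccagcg
POT1: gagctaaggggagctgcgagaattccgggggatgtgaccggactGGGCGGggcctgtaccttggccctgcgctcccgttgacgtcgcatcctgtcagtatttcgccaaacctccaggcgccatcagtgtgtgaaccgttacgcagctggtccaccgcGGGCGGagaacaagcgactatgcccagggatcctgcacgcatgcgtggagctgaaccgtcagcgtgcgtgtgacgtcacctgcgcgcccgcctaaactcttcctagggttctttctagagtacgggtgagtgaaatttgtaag
CLDN4: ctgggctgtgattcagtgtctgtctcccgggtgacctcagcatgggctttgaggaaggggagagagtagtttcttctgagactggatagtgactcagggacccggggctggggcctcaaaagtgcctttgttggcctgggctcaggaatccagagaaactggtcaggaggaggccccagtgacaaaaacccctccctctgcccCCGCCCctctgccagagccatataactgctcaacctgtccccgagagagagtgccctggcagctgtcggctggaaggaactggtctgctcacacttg
EN2: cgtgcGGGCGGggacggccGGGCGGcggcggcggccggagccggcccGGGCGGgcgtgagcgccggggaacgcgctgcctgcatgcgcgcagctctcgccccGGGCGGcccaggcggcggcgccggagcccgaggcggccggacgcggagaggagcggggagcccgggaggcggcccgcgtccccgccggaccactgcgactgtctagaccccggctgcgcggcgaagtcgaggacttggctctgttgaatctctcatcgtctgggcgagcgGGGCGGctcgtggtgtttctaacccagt
The CYCS window held 37 CpG dinucleotides and 2 CCAAT boxes, and that of POT1 26 CpG dinucleotides and 2 GC boxes. CLDN4 had 5 CpG dinucleotides and 1 GC box, and EN2 had 50 CpG dinucleotides and 5 GC boxes. A GC box was present in 45.0% of 34961 promoters on all chromosomes and in 43.5% of the 1779 on chromosome 7. Among chromosome 7 promoters with a peak within 1 kb in 12 libraries the proportion was 72.7%, against 18.1% of those with a peak in 0 libraries. The CCAAT box was in 34.6% of all promoters and 35.0% of those on chromosome 7, with 35.8% and 36.8% for the recurrent and the uncalled ones. For the TATA box the proportions were 11.5% of all, 10.3% of chromosome 7, 4.06% of the recurrent and 15.8% of the uncalled promoters. The median number of CpG dinucleotides was 27 in recurrent and 4 in uncalled chromosome 7 promoters, against 14 over all promoters. These matches describe letters in a window and do not show that a factor bound there.

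The libraries held between 45748 and 62414 peaks on chromosomes 1 to 22 and X, and between 2795 and 4525 on chromosome 7. Read counts are not in the peak lists. Depth relative to the shallowest library, estimated from the background of each list, had a group mean of 1.55 ± 0.220 for untreated and 2.27 ± 0.559 for treated parental cells, and of 1.43 ± 0.423 for untreated and 1.08 ± 0.0688 for treated resistant cells (SD, n = 3 each). Peaks at the lower limit of width, which stands for the mean fragment length, were 67 to 87 bp wide in parental and 94 to 124 bp in resistant libraries, without overlap. Fragment length thus moved with phenotype. Mean depth differed by phenotype with overlapping ranges, 1.33 to 2.77 in parental and 1 to 1.85 in resistant libraries. It also differed by treatment, by 0.723 in parental and -0.349 in resistant cells (treated minus untreated). The part of depth and fragment length in the shares and in the treatment differences below was not tested.

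The first comparison was the share of peaks on chromosome 7. In untreated parental libraries it was 6.44%, 6.06% and 6.74%, and in treated parental libraries 6.57%, 7.25% and 7.31%. Untreated resistant libraries had 6.12%, 6.38% and 5.85%, and treated resistant libraries 5.96%, 5.86% and 5.92%. Of the 6 resistant libraries 4 lay below every parental library, and of the 6 parental libraries 5 lay above every resistant one, so the phenotypes overlapped through untreated parental replicate 2 and 2 untreated resistant libraries. Group means were 6.41% ± 0.339 and 7.04% ± 0.409 (SD, n = 3) for untreated and treated parental cells and 6.12% ± 0.264 and 5.91% ± 0.0473 (SD, n = 3) for untreated and treated resistant cells. The resistant mean was 6.01% ± 0.204 and the parental mean 6.73% ± 0.482 (SD, n = 6), a difference of -0.715 percentage points.

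**Figure D1:**
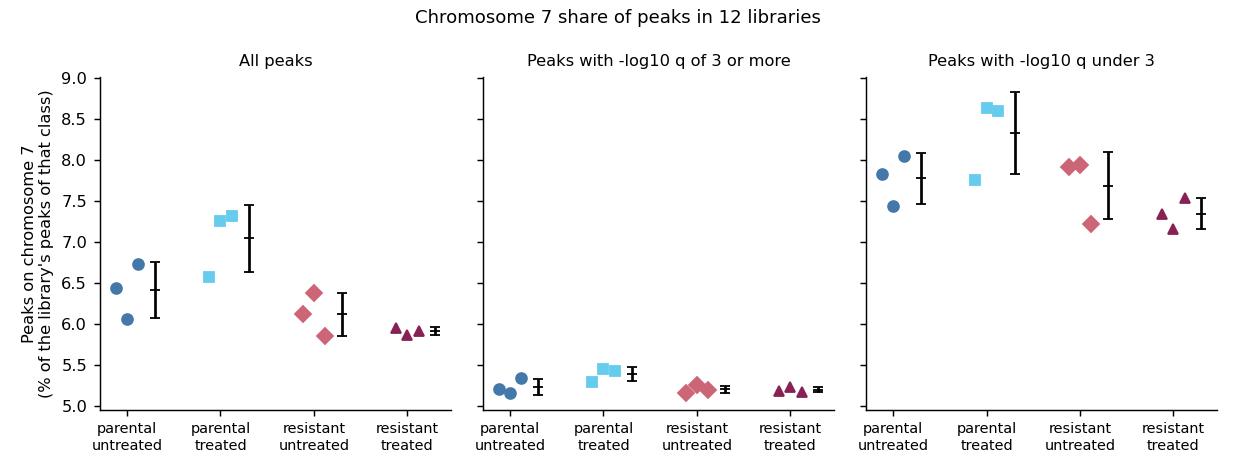
The share of each library's peaks that lay on chromosome 7 is plotted in percent for all peaks, for peaks with -log10 q of 3 or more and for weaker peaks. Points are libraries and bars are mean ± SD (n = 3). The axis starts near 5% and not at 0. The 12 strong-peak shares lie between 5.16% and 5.45%, whereas the shares among all peaks spread from 5.85% to 7.31%.

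The difference depended on the strength of the peak. Peaks were divided at a -log10 q of 3, where q is the false discovery rate given by the peak caller. Among strong peaks (3 or more), chromosome 7 took 5.32% ± 0.117 in parental and 5.20% ± 0.0360 in resistant libraries (SD, n = 6), a difference of -0.114 percentage points. Among weak peaks (under 3) it took 8.05% ± 0.477 in parental and 7.51% ± 0.341 in resistant libraries (SD, n = 6). Chromosome 7 thus took a larger share of the weak than of the strong peaks in both phenotypes.

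Weak peaks also made up less of the resistant lists as a whole. They were 39.6% to 59.4% of a parental list and 31.3% to 42.0% of a resistant list, and 5 of 6 resistant libraries lay below every parental one. On chromosome 7 itself, 48.6% to 69.8% of parental and 39.8% to 52.3% of resistant peaks were weak. By the weak proportion of its peaks, chromosome 7 ranked first or second of 23 chromosomes in each of the 12 libraries. In untreated parental replicate 1, for example, 57.1% of its peaks were weak, against 46.9% for the median chromosome.

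Written as percent of all peaks of a library, strong chromosome 7 peaks averaged 2.60% in parental and 3.39% in resistant libraries, a difference of 0.791 percentage points. Weak chromosome 7 peaks averaged 4.13% and 2.63%, a difference of -1.51 percentage points. The lower resistant share was thus the sum of a higher strong part and a still lower weak part. This split is not particular to chromosome 7, as weak peaks averaged 51.0% of parental and 34.8% of resistant lists over all chromosomes. As percent of strong peaks alone, the chromosome 7 mean was lower in resistant libraries, at 5.20% against 5.32%. Every resistant library lay within the parental range on this measure (5.16% to 5.25% against 5.16% to 5.45%). In numbers of peaks, resistant libraries had 1680 to 1978 strong and 1115 to 1846 weak peaks on the chromosome, and parental libraries 1160 to 1869 strong and 1766 to 3050 weak ones.

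Ranking each list by -log10 q and dividing it into deciles showed where in a list the chromosome was represented. The strongest decile held 6.44% ± 0.141 chromosome 7 peaks in parental and 6.17% ± 0.116 in resistant libraries (SD, n = 6). In the second, the third and the fourth decile the means lay between 4.92% and 5.17% in both phenotypes. The widest gap was in the seventh decile, at 7.49% ± 1.35 in parental and 5.45% ± 0.496 in resistant libraries (SD, n = 6), with ranges of 5.84% to 9.12% and 4.85% to 6.34%. The weakest decile had 9.17% ± 0.807 and 8.66% ± 0.538 (SD, n = 6). On average, chromosome 7 was least represented in the upper middle of a list and most represented near its end.

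**Figure D2:**
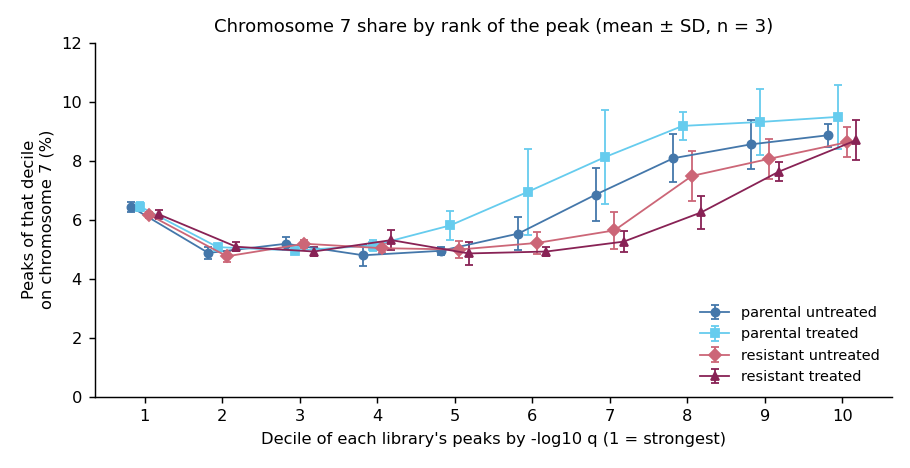
The percent of peaks on chromosome 7 is plotted against the decile of a library's list by -log10 q, where 1 holds the strongest peaks. Points and bars are group means ± SD (n = 3). The 4 groups lie close together in deciles 1 to 4 and separate in deciles 6 to 8, where treated parental libraries are highest and treated resistant libraries lowest.

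Recurrence across libraries gave a similar picture. Of the 14862 chromosome 7 regions, 10040 (67.6%) were called in 1 library and 1262 (8.49%) in 12, whereas over all chromosomes the proportions were 59.5% and 13.6%. Chromosome 7 held 9.48% of the regions called once and 5.23% of those called in 12 libraries. Regions called once had a median width of 143 bp and lay within 1 kb of a start site in 2.44% of cases. Regions called in 12 libraries had a median width of 933 bp, and 37.96% lay within 1 kb of a start site. Parental libraries had 663 to 1721 chromosome 7 peaks in regions of their own, and resistant libraries 342 to 736. Over all chromosomes, such peaks made up 13.9% to 27.7% of a parental and 7.76% to 14.8% of a resistant list, lower in resistant libraries as on chromosome 7.

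**Figure D3:**
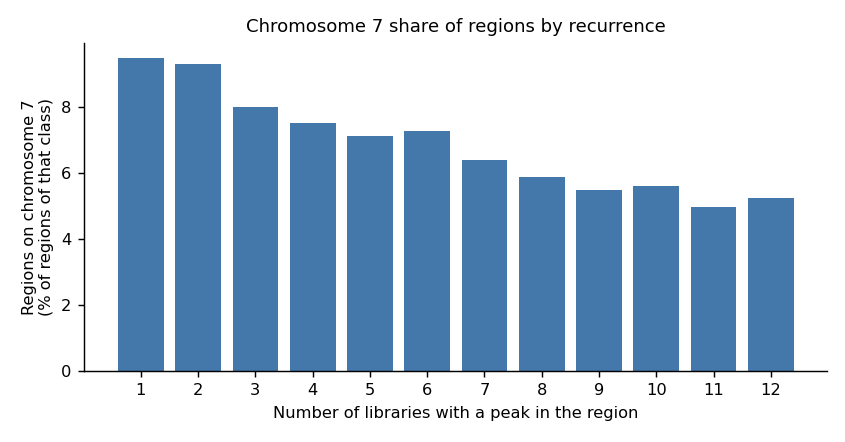
Bars give the percent of merged regions that lay on chromosome 7, for regions with a peak in 1 to 12 libraries. The bars decline from 9.48% of regions found in 1 library to 5.23% of regions found in 12, with small departures from a steady decline on the way.

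Start sites accounted for little of the phenotype difference. Between 591 and 636 parental and between 585 and 610 resistant chromosome 7 peaks lay within 1 kb of a start site, which was 1.08% ± 0.111 and 1.10% ± 0.0777 of all peaks (SD, n = 6). Peaks farther away numbered 2410 to 3893 in parental and 2208 to 3016 in resistant libraries. Their share of all peaks was 5.65% ± 0.505 in parental and 4.91% ± 0.242 in resistant cells (SD, n = 6), a difference of -0.732 percentage points.

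The arms differed about equally. With the chromosome split at 60 Mb, the short arm held 2.70% ± 0.280 of parental and 2.34% ± 0.109 of resistant peaks (SD, n = 6), and the long arm 4.03% ± 0.206 and 3.68% ± 0.103. The differences were -0.362 and -0.353 percentage points, respectively. On the short arm 4 of 6 resistant libraries lay below every parental one, and on the long arm 5 of 6 did. Without the peaks at 58 to 61 Mb, described below, the short-arm difference was -0.149 percentage points.

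Within the arms the difference was uneven. The chromosome was divided into 16 segments of 10 Mb numbered from the end of the short arm, the last one being shorter. In 14 segments the resistant mean was lower (-0.803 percentage points summed) and in 2 it was higher (0.0879 summed). Segment 6 (50 to 60 Mb) averaged 0.595% ± 0.176 of parental and 0.326% ± 0.111 of resistant peaks (SD, n = 6), a difference of -0.270 that came to 37.8% of the difference of the whole chromosome. Segment 7 (60 to 70 Mb) averaged 0.452% and 0.288%, a difference of -0.164 or 22.96%. The next in size was segment 9 (80 to 90 Mb), at -0.0689 or 9.64%, and no other segment with a lower resistant mean exceeded it.

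In segment 6 the values of the untreated parental libraries were 0.491%, 0.320% and 0.579%, and those of the treated parental libraries 0.627%, 0.764% and 0.791%. Untreated resistant libraries had 0.301%, 0.531% and 0.242%, and treated resistant libraries 0.268%, 0.369% and 0.242%. Treated parental libraries were the 3 highest, and the untreated libraries of both phenotypes were interleaved. Each phenotype thus had libraries inside the range of the other in the segment with the largest mean difference. Over the chromosome, 0 of 16 segments had all resistant below all parental libraries and 0 had all above, where 2.32% and 4.3% of the 302 segments tested on all chromosomes did.

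The segments with higher resistant means were segment 1 (0 to 10 Mb), at 0.663% in parental and 0.730% in resistant libraries, and segment 8 (70 to 80 Mb), at 0.501% and 0.522%. In segment 1 the parental libraries ranged from 0.619% to 0.735% and the resistant libraries from 0.642% to 0.786%. As percent of all peaks, weak peaks took a lower resistant share in all 16 segments, whereas strong peaks took a higher one in 15 of them. The exception was segment 6, where the strong part differed by -0.00842 and the weak part by -0.261 percentage points. Whole lists moved in the same direction, with weak peaks at 51.0% of parental and 34.8% of resistant lists on average. As percent of strong peaks alone, the resistant share was lower in segment 6 (-0.106) and also in segment 7 (-0.0683).

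**Figure D4:**
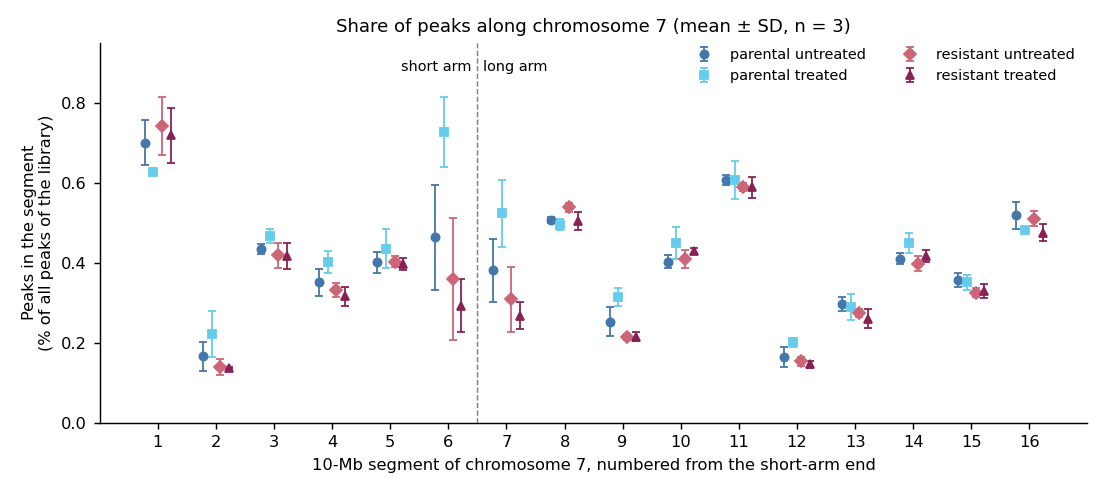
Shares of each library's peaks, in percent, are plotted for the 16 segments of 10 Mb from the end of the short arm (left) to the end of the long arm. Points and bars are group means ± SD (n = 3), and the dashed line is the split between arms. Segments 6 and 7 beside that line show the widest separation, with treated parental libraries at 0.727% in segment 6 and treated resistant libraries at 0.293%.

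**Figure D5:**
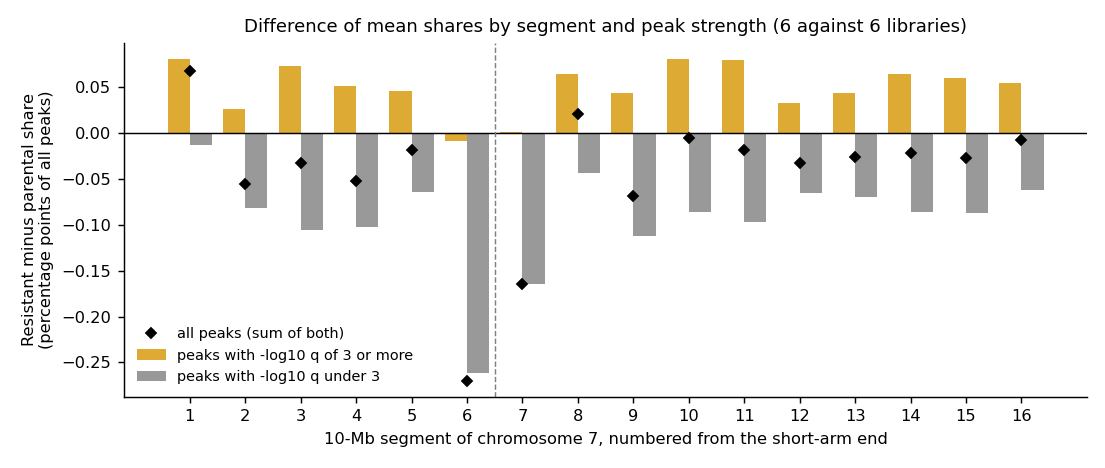
Bars give resistant minus parental mean shares (6 libraries each, percentage points of all peaks) for strong and for weak peaks in the 16 segments, and diamonds give their sum. The weak bars are below 0 in every segment and reach -0.261 in segment 6, while the strong bars are above 0 in every segment except segment 6.

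The 2 segments met at the centromere, and most of their difference lay in a stretch of 3 Mb at 58 to 61 Mb, which was singled out after the values had been seen. It held 2683 peaks, 6.25% of those on the chromosome, in 1102 regions. The RefSeq table listed 0 protein-coding genes there and 1 other entry, the pseudogene LOC101060796 (chr7:60991902-60993220). Untreated parental libraries had 251, 139 and 344 peaks in this stretch, and treated parental libraries had 277, 483 and 427. Untreated resistant libraries had 137, 251 and 71, and treated resistant libraries 103, 130 and 70. Of 6 resistant libraries 5 had fewer peaks than any parental library, with untreated resistant replicate 2 as the exception, and by share of all peaks 3 of 6 lay below every parental library.

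The mean share was 0.561% ± 0.210 in parental and 0.233% ± 0.121 in resistant libraries (SD, n = 6), and the difference of -0.328 percentage points was 45.8% of that of the whole chromosome. With these peaks left out, the chromosome 7 share was 6.20% ± 0.298 in parental and 5.79% ± 0.125 in resistant libraries (SD, n = 6), a difference of -0.409. The 3 windows of 1 Mb in the stretch ranked 10, 7 and 9 among 2921 windows of all chromosomes by how far the resistant mean lay under the parental one. By number of peaks the same windows ranked 70, 35 and 54. The first ranking uses the contrast by which the chromosome was chosen, so it is a description. Each window alone had between 21 and 167 peaks in any library, and the neighbouring window at 61 to 62 Mb had 0 to 14.

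Peaks in the stretch were narrow and weak. Their median width was 179 bp against 276 bp in the rest of the chromosome, and 75.1% were weak against 51.8%. The median fold over the local background was 3.50 against 3.77. Of the 1102 regions 584 (53.0%) were called in 1 library, a lower proportion than the 68.7% of the rest of the chromosome, and 23 were called in 12. Reads that mapped to more than 1 place had been removed, and how much of this repeated sequence could be mapped was not tested.

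The next question was whether oxamate itself changed the chromosome 7 share. Treated minus untreated, over both phenotypes, the difference was 0.212 percentage points (two-sided exact permutation within phenotype, p = 0.345, adjusted p = 0.525 over 23 chromosomes). It was 0.631 in parental cells (exact permutation p = 0.2, adjusted p = 0.288) and -0.206 in resistant cells (exact permutation p = 0.4, adjusted p = 0.836), where 3 against 3 libraries cannot give a p below 0.1. Treated and untreated libraries overlapped in both phenotypes. None of these passed the threshold of 0.05, and 0% of the 23 chromosomes did after adjustment over both phenotypes (8.7% before adjustment). The smallest possible p over both phenotypes was 0.005, so a chromosome alone could not pass adjustment over 23.

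The treatment differences of both phenotypes differed from each other by -0.837 percentage points (exact permutation p = 0.05, adjusted p = 0.144). Treatment labels were permuted within phenotype, so the interaction p-values take no treatment difference in either phenotype as their null, not equal differences in both. Before adjustment 26.1% of the 23 chromosomes had an interaction p under 0.05, and after adjustment 0% had. Without untreated resistant replicate 3 the interaction was -0.969 (exact permutation, adjusted p = 0.0493), and it did not pass the threshold in the other 11 settings that left out 1 library. By arm, the interaction was -0.483 on the short arm (exact permutation p = 0.03, adjusted p = 0.06 over 2 arms) and -0.353 on the long arm (p = 0.065, adjusted p = 0.065). The main treatment difference was 0.124 on the short and 0.0880 on the long arm (exact permutation, adjusted p = 0.35 for both).

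Among the 16 segments, 0 passed the treatment test after adjustment over 302 segments (smallest adjusted p = 0.544, exact permutation), where 0% of all segments did. As the smallest possible p was 0.005, a segment alone could not pass this adjustment, so the test cannot exclude a change confined to single segments. Before adjustment 4 of the 16 segments had p under 0.05, against 8.28% of all segments, and 0 had an interaction p under 0.05, against 19.2%. Treated libraries were higher in segments 10 and 14 (3.31% of all segments were higher at this p), by 0.0332 and 0.0289 percentage points. They were lower in segments 8 and 16 (4.97% of all segments were lower at this p), by -0.0227 and -0.0357. In parental cells every treated library lay above every untreated one in segments 3, 6 and 9 (10.9% of all segments) and below in segment 1 (22.5%). In resistant cells every treated library lay below every untreated one in segment 8 (2.32%), and 0 segments had all of them above (5.63%). In the stretch at 58 to 61 Mb, treated parental libraries averaged 396 ± 107 peaks and untreated ones 245 ± 103 (SD, n = 3), with overlapping ranges, and no test was made of it.

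Single regions were compared by presence of a peak. In parental cells 18 chromosome 7 regions were gained with oxamate, meaning called in 3 of 3 treated and 0 of 3 untreated libraries, and 104 were lost. Over all chromosomes 0.117% of regions were gained and 0.921% lost, and the corresponding proportions on chromosome 7 were 0.121% and 0.700%. Of the 18 gained regions 12 lay at 58 to 61 Mb, and 0 of the 104 lost ones did. In resistant cells 11 were gained and 16 lost with oxamate. These were 0.0740% and 0.108% of chromosome 7 regions, against 0.138% and 0.159% of the regions of all chromosomes. Fisher's exact test (two-sided) of 6 treated against 6 untreated libraries, run on regions called in 5 to 7 libraries, called 0 of 662 chromosome 7 regions after adjustment (0% of 9507 on all chromosomes, with an adjusted p of 1 at the lowest). Before adjustment, at p under 0.05, 6 chromosome 7 regions were lower and 0 higher with treatment, against 1.34% and 0.0526% of all regions tested. This test pooled the phenotypes. With 6 against 6 libraries, even a region split perfectly by treatment could not pass alone after adjustment over 9507 regions. The absence of calls therefore does not show that no region responded.

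The best ranked regions gained with oxamate in parental cells both belonged to the pericentromeric stretch. One at chr7:60639057-60639154 had folds over background of 5.93, 4.34 and 3.79 in the treated parental libraries and no peak in the other 9. Another at chr7:58036610-58036734 had 5.25, 4.92 and 3.58 in the same libraries and no peak elsewhere. Both were intergenic by the gene table. Of the lost regions, chr7:38222466-38222756 within STARD3NL, which encodes an endosomal cholesterol-binding protein, had folds of 11.9, 5.30 and 10.2 in untreated parental libraries, 0 peaks in treated ones, and 4.47 to 6.10 in all 6 resistant libraries. A region at chr7:50512052-50512375 within DDC, the gene of aromatic amino acid decarboxylase, had 5.26, 8.72 and 8.38 in untreated and no peak in treated parental libraries, and was called in 3 resistant libraries.

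In resistant cells the best ranked gained regions were called in all 6 parental libraries as well. The one at chr7:45854280-45854540, 5454 bp from CCDC201, had folds of 7.35, 7.46 and 8.95 in treated and no peak in untreated resistant libraries, with 3.37 to 6.45 in parental ones. That at chr7:116250066-116250273 within TES, which encodes the focal adhesion protein testin, had 7.71, 6.67 and 6.63 in treated resistant libraries and 3.39 to 6.70 in parental ones. Lost with treatment were chr7:128035796-128035995 within SND1, a gene of a nuclease of RNA-induced silencing, at 7.05, 5.00 and 5.00 in untreated resistant libraries, and chr7:23035731-23036408, intergenic, at 4.39, 3.90 and 3.89. In parental cells the SND1 region was called in 3 untreated and 1 treated library, and the intergenic one in 1 untreated and 1 treated library. The gene table gave spans, so exons and introns were not told apart.

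Between phenotypes, as a description, 36 chromosome 7 regions were called in 3 of 3 untreated resistant and 0 of 3 untreated parental libraries. The other way round there were 30. The proportions were 0.242% and 0.202% of chromosome 7 regions, against 0.443% and 0.28% of the regions of all chromosomes. Between treated libraries the numbers were 135 and 57, or 0.908% and 0.384%, against 1.41% and 0.433% over all chromosomes. Each proportion was lower on chromosome 7. The denominators, here and for oxamate above, include regions called in 1 library, which can never meet the criterion. Those were 67.6% of chromosome 7 regions and 59.5% of all regions, so the lower proportions do not show fewer differences among recurrent regions. Of the 57 regions called in treated parental libraries alone among those 6 libraries, 39 lay at 58 to 61 Mb, and 0 of the 135 did. More regions were called in the resistant than in the parental group alone in both comparisons, on chromosome 7 as on all chromosomes. The order turned when 1 library was left out, to 62 against 77, 86 against 106 and 55 against 92 without untreated parental replicate 1, 2 or 3, and to 173 against 198 without treated parental replicate 1. Each library left out here was parental, and leaving it out by construction makes a weaker demand on the parental group.

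The region with the best rank among those higher in resistant cells was chr7:97181573-97181952, within SDHAF3, which encodes an assembly factor of succinate dehydrogenase. Its fold was 19.6, 20.4 and 23.7 in untreated and 18.0, 15.2 and 18.8 in treated resistant libraries, and 0 of 6 parental libraries had a peak there. An intergenic region at chr7:109654536-109654955 had folds of 9.45, 8.72 and 10.7 in untreated resistant libraries, was called in 2 treated resistant libraries and in 0 of 6 parental ones. Within CNTNAP2, a neurexin-family adhesion gene, chr7:146118368-146118714 had 14.9 to 20.03 in untreated and 18.8 to 21.5 in treated resistant libraries. It also had a peak in 2 untreated parental libraries, at 22.97 and 26.7, and none in treated parental ones.

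Lost in untreated resistant cells was an intergenic region at chr7:119265012-119265193, with folds of 29.3, 32.8 and 34.8 in untreated and 26.5 to 30.6 in treated parental libraries. In resistant cells 1 library, treated replicate 2, had a peak there, at 26.4, and the other 5 had none. The region of 270 bp at chr7:98291732-98292001, within the spans of BRI3 and BAIAP2L1, was weaker, at 3.06 to 4.32 in untreated parental libraries. It was also called in 2 treated parental libraries and in 2 treated resistant ones, the latter at 3.30 and 2.99. Between treated libraries, chr7:62454682-62454833, 152 bp wide and intergenic, had 12.0, 15.02 and 15.2 in parental and no peak in resistant cells, and it was called in 2 untreated parental and 1 untreated resistant library. The folds of the regions within SDHAF3 and CNTNAP2 and of the one at chr7:119265012-119265193 reached 23.7, 26.7 and 34.8, against 6.51 to 15.8 at the 6 strongest recurrent regions below, and how reads came to be stacked there was not tested.

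The 6 strongest regions called in 12 libraries included 5 at start sites. On the short arm they were chr7:25862155-25863032, intergenic, chr7:7640137-7641277 at the start site of UMAD1 and within RPA3, a gene of the single-strand DNA-binding protein RPA, and chr7:25125096-25125924 at the start site of CYCS. On the long arm they were chr7:100585823-100586753 at LRCH4, chr7:77798018-77799746 at TMEM60 and chr7:66996356-66996985 at TYW1, which encodes a tRNA-modifying enzyme. At CYCS the folds were 12.3, 12.2 and 11.1 in untreated parental, 9.77, 11.1 and 9.27 in treated parental, 10.7, 10.7 and 11.8 in untreated resistant and 11.2, 11.2 and 10.9 in treated resistant libraries. The groups overlapped at CYCS, and its peak stayed within the top 1.14% of every list.

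A list of 138 known chromosome 7 genes was followed by function, of which 110 were matched to a start site. A gene was counted as called in a library if a peak lay within 1 kb of the start site. Of the 110, 60 were called in 12 libraries, 21 in 0 and 29 in 1 to 11. Among all 1779 start sites on the chromosome 40.2% were called in 12, against 41.9% of 34961 on all chromosomes. Per library, 768 to 842 of the 1779 were called in parental and 815 to 851 in resistant libraries. The mean proportion called was 45.6% in parental and 46.9% in resistant libraries on chromosome 7, and 47.4% and 49.4% on all chromosomes.

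Genes of chromatin, metabolism and the cell cycle were called most evenly. All 7 chromatin regulators, 16 of 18 metabolic enzymes and 11 of 13 genes of the cell cycle and DNA replication or repair had a peak in 12 libraries. For receptor and RAS signalling the number was 7 of 13, for transporters and channels 6 of 12, for transcription factors 8 of 22 and for adhesion, matrix and secreted factors 5 of 25. Among the transcription factors 7 were called in 0 libraries, 5 of them in the HOXA cluster. Adhesion genes had 7 in 0 and 13 in 1 to 11 libraries.

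By rank, the leading signalling genes were GNA12, a G protein alpha subunit, with folds of 9.36 to 14.0, and RHEB, the GTPase that activates mTORC1, with 5.73 to 9.16. POT1 had 9.98 to 14.2, and CDK5, a cyclin-dependent kinase best known from neurons, 7.51 to 8.99 from a peak that it shared with SLC4A2, an anion exchanger gene. BAZ1B, a chromatin remodeller subunit, and PHF14, a PHD finger protein, had 6.10 to 7.53 and 6.25 to 9.80. These values varied across the 12 libraries by less than a factor of 2 at each gene.

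Of the transcription factors, CREB3L2, activated under endoplasmic reticulum stress, had folds of 6.78 to 9.93 and the ETS factor ETV1 4.83 to 8.74. Besides CYCS, the leading metabolic gene was MDH2, the mitochondrial malate dehydrogenase, at 7.72 to 11.3. ABCB8, a mitochondrial ABC transporter, had 7.60 to 9.88 and CLDN12, a claudin, 6.18 to 11.7. IL6, the interleukin 6 gene, was weaker at 3.37 to 6.90. EGFR, MET and BRAF, named here for their role after their values had been seen, were called in 12 libraries with folds of 3.29 to 5.61, 4.97 to 10.7 and 4.38 to 7.06. ABCB1, the multidrug efflux pump gene, was called in 0 of 12.

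Calls at 7 of the 110 genes (6.36%) differed by 3 or more libraries between phenotypes or by 2 or more between treated and untreated libraries of a phenotype. The same criterion held at 4.38% of chromosome 7 start sites and at 5.06% of all start sites. CLDN4 was called in 0 of 6 parental and 6 of 6 resistant libraries. Its folds were 2.41, 2.86 and 2.59 in untreated and 2.54, 3.16 and 3.11 in treated resistant libraries, and its peak ranked between the top 46.9% and 70.2% of a list. WNT16, a Wnt ligand, was called in 0 parental, 1 untreated resistant and 2 treated resistant libraries.

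EN2 had peaks of fold 3.88, 4.36 and 3.14 in untreated parental libraries and none in treated ones, and was called in 5 of 6 resistant libraries at 3.26 to 4.14. GRB10, an adaptor that dampens insulin receptor signalling, was called in 3 untreated and 1 treated parental library and in 6 of 6 resistant ones, with folds of 3.35 to 4.69 throughout. HOXA11, a HOX factor, was called in 3 parental and 6 resistant libraries and CDK6, the G1 cyclin-dependent kinase, in 2 and 5. KCNH2, the hERG potassium channel gene, was called in 2 untreated and 0 treated parental libraries and in 3 resistant ones. At 6 of these 7 genes the number of parental libraries called was under the number of resistant ones by 2 or more, and at KCNH2 by 1. The criterion used the phenotype contrast, so this direction is a description. Over all chromosomes start sites were also called more often in resistant than in parental libraries, at 49.4% against 47.4%. The folds of these peaks lay between 2.14 and 4.91, and whether read counts there differed was not tested. No start site was matched for 28 listed genes, among them RAC1, RASA4, RPA3, TRRAP, TRIM24, JAZF1, HOXA5, TWIST1, DLX5, GLI3, PSPH, AKR1B10, HIBADH, NDUFA4, OGDH, ABCB4, ABCB5, SLC26A5, COL1A2, PODXL, ELN, SEMA3A, IGFBP1, FSCN1 and ACTB.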

How the data were processed

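ATAC-seq peak lists of 12 MIAPaCa2 libraries were used, with groups and replicate numbers from the labels. The authors aligned reads to hg38 with Bowtie2 2.1.0, called broad peaks for each library with MACS2 after dropping mitochondrial reads, duplicates and reads without a unique position. The MACS2 version, effective genome size, control and blacklist are not given in the sources used here. The deposited lists hold peak positions, a score derived from q, the fold over local background (a ratio) and -log10 of p and q, with every q at 0.1 or below. The authors' fold and -log10 values were used to rank or filter within a list, and the score was not analysed further. The lists hold no read counts. Relative depth was the Poisson background that the commonest combination of fold and -log10 p implied, divided by the smallest width.

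Peaks on chromosomes 1 to 22 and X were counted by midpoint (Python 3.11.15, numpy 2.4.6, pandas 2.3.3, scipy 1.17.1, matplotlib 3.10.9), and positions are 1-based. Start sites came from RefSeq promoter windows of GRCh38.p14, a table that is not complete. Treatment was tested by two-sided exact permutation within phenotype (400 assignments, smallest p 0.005) or within 1 phenotype (20 assignments, smallest p 0.1), with Benjamini-Hochberg adjustment over 23 chromosomes, 2 arms or the 302 segments of 10 Mb with at least 20 peaks per library on average. Named genes were the 2 per functional group with the best median rank called in 12 libraries, and those whose calls differed by 3 libraries between phenotypes or 2 between treatments. Named regions were the 2 best ranked per comparison and direction and the 3 best recurrent ones per arm. Promoters shown were the 2 best ranked and the 2 whose calls differed most. Members and lists were chosen with earlier results of these data known. Alternatives were a -log10 q minimum of 3, the 45748 top peaks of each list, shares of covered bases, a width of at least 124 bp, peaks in regions of 2 or more libraries, peaks covering at least 50% of a region, segments of 5 Mb, regions called in 3 to 9 libraries for Fisher's test, a block for the replicate number, and each library omitted in turn.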

Additional observations from a re-analysis of the deposited data

How the results depend on the processing

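Absolute depth is unknown, and no counting error could be given. Of 106 values under alternatives other than leaving out a library, 23 moved and 2 reversed. The other 81 were taken as unchanged. Tested differences among them kept direction and side of the threshold, which does not mean that their size was kept. Untested share differences among them kept direction and changed by less than the SD within groups, and counts stayed equal or within a set ratio. The phenotype difference of the chromosome 7 share (-0.715) became -0.114 with strong peaks (-log10 q 3 or more), -0.146 with peaks in regions of 2 or more libraries, and, in alternatives added after seeing the data, -0.409 without 58 to 61 Mb and -0.308 without 50 to 70 Mb. With peaks in regions of 2 or more libraries the treatment difference reversed to -0.0256 (adjusted p = 0.975, exact permutation) and that of the long arm to -0.0300 (adjusted p = 0.91, exact permutation). Under the same alternative the difference was 0.0804 in parental cells (from 0.631) and 0.00440 on the short arm (from 0.124), and with strong peaks it was -0.00369 in resistant cells (from -0.206) and the interaction -0.157 (from -0.837). The lowest adjusted p of the tested results over these alternatives was 0.0767 by exact permutation.

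Leaving out 1 library gave -0.849 to -0.599 for the phenotype difference, 0.124 to 0.330 for treatment, 0.454 to 0.866 in parental and -0.339 to -0.0748 in resistant cells, -1.07 to -0.660 for the interaction, 0.0689 to 0.193 for the short and 0.0502 to 0.138 for the long arm, and 0 segments called throughout. The interaction passed the threshold without resistant untreated replicate 3 (-0.969). A segment alone could not pass the adjustment over all segments in these settings either, so the count of 0 segments is no sign of stability.

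Counts of regions also moved. With strong peaks there were 5 gained in parental and 2 lost in resistant cells with oxamate, 6 untreated and 15 treated regions lost between phenotypes and 205 treated gained. With at least 50% of the region covered there were 7 gained in parental cells, 68 gained and 13 lost between untreated and 225 gained and 21 lost between treated phenotypes. Leaving out 1 library, which by construction makes a weaker demand on the group it belongs to, gave 17 to 106 gained (highest without parental treated replicate 1) and 102 to 230 lost (parental untreated replicate 3) in parental cells, and 11 to 84 gained (resistant treated replicate 2) and 16 to 91 lost (resistant untreated replicate 3) in resistant cells. Between phenotypes it gave 36 to 141 gained (resistant untreated replicate 2) and 29 to 106 lost (parental untreated replicate 2) for untreated, and 134 to 344 gained (resistant treated replicate 2) and 56 to 198 lost (parental treated replicate 1) for treated libraries. The cause of the other changes was not tested.

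Replicate numbers were not taken to pair the libraries. Same-numbered libraries correlated in their deviations at 0.446, 0.663 and 0.658 in resistant cells but at -0.0808, -0.437 and 0.475 in parental cells, and 3 of 6 correlated best with their own number. With the replicate number as a block the treatment difference was 0.212 (adjusted p = 0.634, exact permutation), with 0.631 in parental and -0.206 in resistant cells. The interaction was -0.837 (adjusted p = 0.144, exact permutation), and 0 segments were called. With this block the permutation p could not fall below 0.03125, or below 0.25 within 1 phenotype. A chromosome or segment alone could thus not pass after adjustment, and the absence of calls does not show that the results are stable.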
